A study of Drosophila melanogaster with 69 samples.

Results

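The dosage compensation complex of Drosophila, also called the MSL complex, was followed here through its 7 genes: the protein subunits msl-1, msl-2, msl-3, mle and mof and the noncoding RNAs lncRNA:roX1 and lncRNA:roX2, called roX1 and roX2 below. They were picked by their FlyBase symbols from the 17807 genes listed for every library. All 7 were listed in all 69 libraries. The libraries came from whole testes and ovaries at days 1, 3, 5, 7, 9 and 11 of adult life.

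The chinmoST flies carry a mutation in chinmo, a transcription factor gene whose product keeps the somatic stem cells of the testis male, and adult chinmoST testes lose male features of the soma with age. In the labels the chinmoST libraries carry Sod1[X-39] with the allele e[1], over the balancer TM3 with its markers Sb[1] and also Ser[1], and how these alleles relate to the chinmo mutation is not given in the sources used here. The WT flies were Oregon R. There were 18 chinmoST and 18 WT testis libraries, with 3 of each genotype at each day, and 18 chinmoST and 15 WT ovary libraries. The WT ovaries had 2 libraries rather than 3 at days 1, 7 and 11. Flies were kept at 25 °C, and each library pooled 50 to 60 pairs of testes or 20 to 25 pairs of ovaries. Titles of the youngest libraries say day 0 where the other labels say day 1, and day 1 is used here. Nothing in the sources says whether replicate pools came from separate cultures, so the p-values measure only the spread between these libraries.

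In male flies the MSL complex coats the single X chromosome and raises its transcription towards the output of the paired female X chromosomes. MSL2 is the limiting protein: it binds high-affinity sites on the X, and in females the protein Sex-lethal (encoded by Sxl) blocks both splicing and translation of msl-2 RNA, so that no complex forms. MSL1 is the scaffold that holds MSL2, MSL3 and MOF. MSL3 reads methylated histone H3 on active genes, and MOF acetylates histone H4 there. MLE is an RNA helicase that remodels the roX RNAs so that MSL2 can bind them. roX1 and roX2 act redundantly in the soma, are transcribed from the X itself, and are hardly made in females. MOF, MLE and MSL1 also have roles outside the complex, and MOF sits in a second complex, NSL, at promoters of both sexes. In the male germ line the complex is known to be absent or incomplete, whereas it is present in the somatic cells of the testis.

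The members lie on different chromosomes of the BDGP6 (dm6) assembly. Both roX genes and mof are X-linked: roX1 (FBgn0019661) at X:3857230-3862697 on the minus strand, roX2 (FBgn0019660) at X:11579065-11580432 on the plus strand, and mof (FBgn0014340) at X:5873840-5876853 on the minus strand. The remaining members are autosomal and on the minus strand. msl-1 (FBgn0005617) is at 2L:18683720-18688800, msl-2 (FBgn0005616) at 2L:3462218-3466112, msl-3 (FBgn0002775) at 3L:7123213-7125533 and mle (FBgn0002774) at 2R:5974857-5980778. mof is a single exon of 3014 nt with 1 annotated transcript. roX1 has 5 annotated transcripts of 3460 to 4832 nt, and roX2 has 6 of 522 to 1368 nt. Whether the reads carried strand is not stated, and exons of the members are shared in part with neighbours: 392 of the 5468 exonic bases of roX1 with ec on the other strand, 85 of the 1970 of msl-3 with form3 on the other strand, and 111 of the 3843 of msl-2 with mir-4971 on the same strand. ec was far below roX1 in testes, at 0.96 to 8.39 TPM in chinmoST and 0.31 to 2.01 TPM in WT. form3 was nearer to msl-3, at 10.4 to 22.7 TPM in chinmoST testes and 4.60 to 14.8 TPM in WT testes, so a part of the msl-3 reads could belong to form3.

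Levels and differences are given. Levels are in TPM, as deposited: the share of a gene among all transcripts of a library, scaled to a fixed total and corrected for transcript length, so that genes can be set against each other. Differences between groups are log2 fold changes with their standard errors (SE) from edgeR's quasi-likelihood test on the expected counts. A gene was called changed at an adjusted p under 0.05 (Benjamini-Hochberg, over all tested genes) and a fold change of at least 1.5. In the text, "called higher" and "called lower" have this meaning.

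Libraries held 48461243 to 127443355 expected counts in chinmoST testes, 32462418 to 181988641 in WT testes, 36258278 to 110314138 in chinmoST ovaries and 52417175 to 144340740 in WT ovaries. Some libraries were low in long genes: replicate 1 of WT testes at days 3, 5, 7 and 9, 2 chinmoST testis libraries (day 1 replicate 3 and day 3 replicate 1), 3 chinmoST ovary libraries and 5 WT ovary libraries. The WT ovary library of day 1 replicate 1 carried testis RNA, with 255 TPM summed over 6 sperm genes against at most 6.75 TPM in any other ovary library. Values without the libraries low in long genes are given beside the main comparisons. All WT ovary libraries of day 11 were among them, so in that setting every mean over days that uses WT ovaries leaves out day 11. There, chinmoST ovaries of day 1 keep only replicate 3 and WT ovaries of day 7 only replicate 1. The tissue labels matched their markers: 5 eggshell and yolk genes summed to 1578 to 31576 TPM in chinmoST ovaries and 1273 to 58534 TPM in WT ovaries. chinmo itself was not called changed in testes, with a log2 fold change of -0.25 in the mean over days (SE 0.11, adjusted p = 0.0394), at 31.7 to 91.3 TPM in chinmoST testes and 27.3 to 113 TPM in WT testes. In ovaries, where it was scarce at 0.07 to 1.15 TPM in chinmoST and 0.04 to 1.36 TPM in WT, it was called higher (log2 fold change 1.17, adjusted p = 0.00554), and the effect in testes minus that in ovaries was -1.55 (adjusted p = 5.92e-05). Its level in testes does not check the genotype labels.

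In chinmoST testes no member was called at day 1 and 6 of the 7 were called higher at day 11, whereas in WT testes none of the 7 was called between those days. roX1 had the largest fold change at day 11 and the earliest call upwards. The subunits followed from day 7, and msl-3 was the only member not called higher at day 11. Over the same days many other genes changed too, so each count is set beside the share of all 14910 tested genes called the same way.

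roX1 had 21.6, 20.7 and 21.1 TPM in the chinmoST testes of day 1, against 17.9, 14.9 and 16.9 TPM in WT testes of that day. All 3 chinmoST libraries stood above all 3 WT libraries, but the difference was not called (log2 fold change 0.52, SE 0.25, adjusted p = 0.275). At day 3 the chinmoST testes had 28.1, 30.4 and 27.3 TPM, against 18.2, 21.0 and 15.2 TPM in WT testes. At day 5 they had 36.8, 45.3 and 52.0 TPM, against 25.4, 23.1 and 18.9 TPM in WT testes. The groups did not overlap at either day, and roX1 was called higher at both, with log2 fold changes of 0.69 (SE 0.25, adjusted p = 0.0472) and 0.78 (SE 0.25, adjusted p = 0.018). These early calls were fragile: without replicate 2 the adjusted p was 0.275 at day 3 and 0.209 at day 5, and without replicate 3 it was 0.349 and 0.412.

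From day 7 the roX1 difference was several fold. The chinmoST testes of day 7 had 71.0, 124 and 101 TPM, against 19.1, 17.3 and 19.8 TPM in WT testes (log2 fold change 2.14, SE 0.26, adjusted p = 1.73e-07). At day 9 they had 101, 126 and 155 TPM, against 33.3, 22.2 and 22.5 TPM in WT testes (log2 fold change 1.95, SE 0.26, adjusted p = 3.34e-07). The lowest chinmoST library of these days was above the highest WT library of any day. At day 11 the chinmoST testes had 143, 98.0 and 119 TPM, against 23.9, 19.5 and 19.3 TPM in WT testes. roX1 was then 4.78-fold higher (log2 fold change 2.26, SE 0.26, adjusted p = 2.4e-08), and this log2 value lay between 2.13 and 2.50 under the 12 other settings recomputed. Counts were high enough for this gene that sampling noise was small, at 4824 to 34460 expected counts in chinmoST testes and 1535 to 19059 in WT testes.

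roX2, the shorter of the noncoding RNAs, was far scarcer. It had 1.28, 1.39 and 2.51 TPM in chinmoST testes of day 1, against 1.28, 1.49 and 1.35 TPM in WT testes, and the groups overlapped. At day 3 it had 1.71, 1.79 and 2.40 TPM in chinmoST testes, against 1.35, 0.92 and 1.34 TPM in WT testes. At day 5 it had 1.56, 2.69 and 2.75 TPM in chinmoST testes, against 1.94, 1.33 and 1.66 TPM in WT testes. The groups were apart at day 3 and overlapped again at day 5, and neither difference was called. At day 7 it had 3.02, 6.32 and 4.62 TPM in chinmoST testes, against 1.38, 1.55 and 1.61 TPM in WT testes. Those of day 9 gave 3.79, 5.93 and 4.45 TPM in chinmoST, against 2.90, 1.33 and 1.22 TPM in WT testes. At day 11 it had 7.44, 6.66 and 4.42 TPM in chinmoST testes, against 1.54, 1.68 and 1.49 TPM in WT testes. Every chinmoST library of days 7, 9 and 11 was above every WT library of its own day. roX2 was called higher at day 7 (log2 fold change 1.34, SE 0.37, adjusted p = 0.00285), at day 9 (1.12, SE 0.36, adjusted p = 0.00912) and at day 11 (1.35, SE 0.36, adjusted p = 0.00199, a 2.55-fold difference). Without replicate 2 or without replicate 3 the calls of days 7 and 9 were lost, with adjusted p = 0.126 and 0.0672 at day 7 and 0.247 and 0.156 at day 9. The log2 fold change ran from 1.02 to 1.76 at day 7 and from 0.73 to 1.80 at day 9 when each replicate number was left out, highest without replicate 1 at both days. Its counts were low throughout testes, at 90 to 402 in chinmoST and 33.0 to 354 in WT, which leaves more sampling noise than for roX1.

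msl-2 encodes the limiting, male-specific subunit. At day 1 it had 3.62, 3.59 and 2.53 TPM in chinmoST testes, against 5.10, 4.44 and 4.42 TPM in WT testes, so the chinmoST libraries were all lower at this age (log2 fold change -0.40, SE 0.22, adjusted p = 0.342, not called). At day 3 it had 3.47, 4.03 and 3.55 TPM in chinmoST testes, against 2.70, 6.18 and 3.75 TPM in WT testes. At day 5 it had 4.70, 4.69 and 5.14 TPM in chinmoST testes, against 1.92, 5.17 and 3.89 TPM in WT testes. The genotypes overlapped at both days. At day 7 it had 5.88, 8.91 and 6.29 TPM in chinmoST testes, against 2.77, 4.51 and 4.37 TPM in WT testes. By day 9 the chinmoST testes had 7.24, 8.48 and 10.6 TPM, against 2.92, 4.81 and 4.24 TPM in WT testes. At day 11 it had 10.7, 9.23 and 10.8 TPM in chinmoST testes, against 5.01, 4.39 and 4.66 TPM in WT testes. The order of the genotypes had thus turned over, and the groups of days 7, 9 and 11 did not overlap. msl-2 was called higher at day 7 (log2 fold change 0.64, SE 0.22, adjusted p = 0.0133), day 9 (0.87, SE 0.22, adjusted p = 0.000996) and day 11 (0.93, SE 0.22, adjusted p = 0.000456, 1.91-fold). The day 7 value fell below the fold limit, at 0.49, without the libraries low in long genes, which include the WT library of 2.77 TPM.

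msl-1, the scaffold, moved most among the subunits. It had 3.53, 3.28 and 2.52 TPM in chinmoST testes of day 1, against 4.05, 3.51 and 4.10 TPM in WT testes, with overlap. At day 3 it had 3.16, 3.08 and 3.03 TPM in chinmoST testes, against 1.03, 4.06 and 3.81 TPM in WT testes. At day 5 it had 4.48, 4.25 and 4.47 TPM in chinmoST testes, against 0.86, 3.89 and 3.81 TPM in WT testes. The chinmoST libraries were wholly above at day 5, by a margin that was not called. At day 7 it had 8.06, 10.9 and 6.11 TPM in chinmoST testes, against 1.35, 4.10 and 4.03 TPM in WT testes. For day 9 the values were 9.40, 11.8 and 14.0 TPM in chinmoST testes, against 1.88, 4.57 and 4.66 TPM in WT testes. By day 11 the level was 20.4, 13.3 and 17.4 TPM in chinmoST testes, against 4.29, 3.42 and 3.92 TPM in WT testes. The lowest chinmoST library of day 11 thus stood well above every WT testis library of any day, the highest of which had 4.66 TPM. The log2 fold changes were 1.38 at day 7 (SE 0.34, adjusted p = 0.00115), 1.56 at day 9 (SE 0.34, adjusted p = 0.000277) and 2.07 at day 11 (SE 0.35, adjusted p = 7.63e-06, 4.21-fold). msl-1 read low in the WT testis libraries low in long genes, at 0.86 to 1.88 TPM against 3.42 to 4.66 TPM in the other WT testis libraries. Leaving all such libraries out kept the calls of days 7, 9 and 11.

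**Figure D1:**
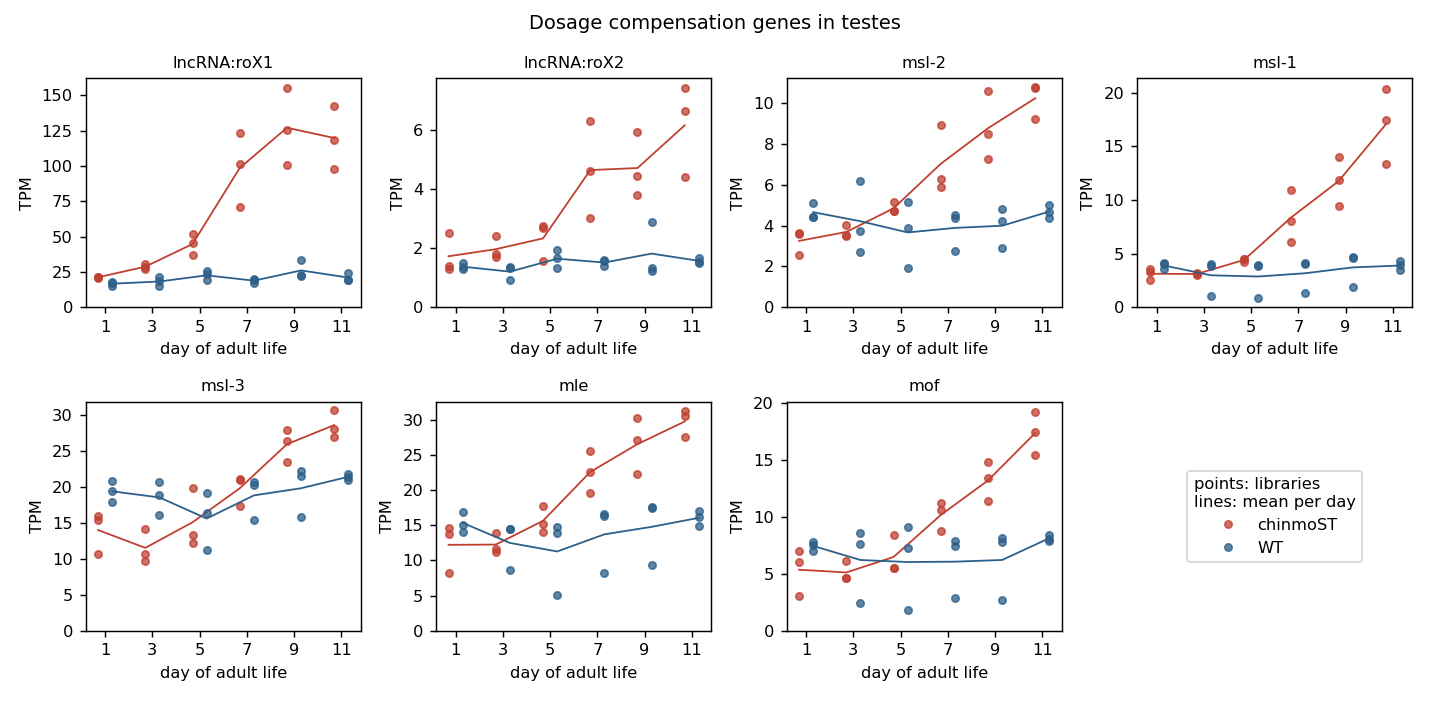
Level of each dosage compensation gene (vertical axis, TPM) in every testis library by day of adult life (horizontal axis), with points for libraries and lines for the mean of each day in chinmoST and WT testes. In chinmoST testes roX1 reached 98.0 to 143 TPM at day 11 and msl-1 reached 13.3 to 20.4 TPM, all above the WT libraries of that day.

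mle and mof moved less. mle, the helicase, had 14.7, 13.8 and 8.19 TPM in chinmoST testes of day 1, against 16.9, 14.1 and 15.03 TPM in WT testes, and at days 3 and 5 the genotypes overlapped too (11.2 to 17.7 TPM in chinmoST testes, 5.04 to 14.8 TPM in WT testes). It had 31.2, 27.5 and 30.5 TPM in chinmoST testes of day 11, against 17.0, 14.9 and 16.2 TPM in WT testes. The groups lay wholly apart, as they also did at day 7, with 22.6, 25.6 and 19.5 TPM in chinmoST testes against 8.23, 16.6 and 16.3 TPM in WT testes, and at day 9, with 22.3, 27.1 and 30.2 TPM against 9.30, 17.5 and 17.6 TPM in WT testes. mle was called higher at day 9 (log2 fold change 0.59, SE 0.22, adjusted p = 0.0221) and day 11 (0.69, SE 0.22, adjusted p = 0.0074), and missed both the adjusted p and the fold limit at day 7 (0.51, SE 0.22, adjusted p = 0.0519). At day 11 the call was lost without replicate 2 (adjusted p = 0.0821) or replicate 3 (adjusted p = 0.0741). At day 9 it was also lost under several settings, and the log2 fold change was 0.32 without the libraries low in long genes.

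mof, the acetyltransferase, had 7.01, 6.04 and 3.04 TPM in chinmoST testes of day 1, against 7.53, 7.05 and 7.77 TPM in WT testes. All 3 chinmoST libraries were lower, and the difference was not called (log2 fold change -0.39, SE 0.37, adjusted p = 0.678). Levels at day 3 were 6.12, 4.60 and 4.65 TPM in chinmoST testes, against 2.42, 8.61 and 7.62 TPM in WT testes. Day 5 gave 8.40, 5.55 and 5.49 TPM, against 1.80, 9.08 and 7.24 TPM in WT testes. The genotypes overlapped and neither difference was called. With each replicate number left out, the log2 fold change ran from -0.65 to 0.14 at day 3 and from -0.55 to 0.46 at day 5. Without the libraries low in long genes, mof was called lower in chinmoST testes at day 3. Its day 7 levels were 10.6, 11.2 and 8.73 TPM in chinmoST testes, against 2.89, 7.47 and 7.85 TPM in WT testes. At day 9 it had 13.4, 11.4 and 14.8 TPM in chinmoST testes, against 2.66, 8.17 and 7.83 TPM in WT testes. At day 11 it had 19.2, 15.5 and 17.4 TPM in chinmoST testes, against 8.39, 7.92 and 8.10 TPM in WT testes, with no overlap. mof was called higher at day 11 alone (log2 fold change 0.90, SE 0.37, adjusted p = 0.0362, 1.86-fold), after 0.85 at day 9 (SE 0.37, adjusted p = 0.0502). The day 11 call was lost without replicate 2 (adjusted p = 0.135) or replicate 3 (adjusted p = 0.184). Its SE was wider than those of msl-2, msl-3 and mle, and the WT libraries low in long genes read 1.80 to 2.89 TPM, against 7.05 to 9.08 TPM in the other WT testis libraries.

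msl-3, the chromodomain subunit, was the only member called lower than in WT testes at any day in the main comparisons. At day 1 it had 15.9, 15.4 and 10.7 TPM in chinmoST testes, against 19.4, 17.9 and 20.8 TPM in WT testes. At day 3 it had 14.2, 9.65 and 10.7 TPM in chinmoST testes, against 16.1, 18.8 and 20.7 TPM in WT testes. All chinmoST libraries were lower at both days, and msl-3 was called lower at day 3 (log2 fold change -0.68, SE 0.12, adjusted p = 0.000189), a call that was lost without replicate 2 (adjusted p = 0.0525). At day 7 it had 21.1, 21.0 and 17.3 TPM in chinmoST testes, against 15.4, 20.3 and 20.7 TPM in WT testes, and was the only member whose groups still overlapped. At day 9 it had 26.4, 23.4 and 27.9 TPM in chinmoST testes, against 15.8, 21.5 and 22.2 TPM in WT testes. At day 11 it had 30.7, 27.0 and 28.1 TPM in chinmoST testes, against 21.8, 21.0 and 21.4 TPM in WT testes. The TPM groups did not overlap there, but the fold change on the scale of counts was 0.22 in log2 and was not called (SE 0.12, adjusted p = 0.106).

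In counts, 0 of 7 members were called at day 1, where 5.6% of all tested genes were called. edgeR gave 2 members an unadjusted p under 0.05 at that day, and DESeq2 called 0 as well. Without the libraries low in long genes, which include the chinmoST library with the lowest mof level of that day, 0 were called either, and the log2 fold changes ran from -0.37 for msl-2 to 0.37 for roX1, with -0.20 for mof. At day 3, 1 member was called higher and 1 lower, beside 6.59% and 12.6% of all tested genes. At day 5, 1 was called higher, beside 12.7%. At day 7, 4 of 7 were called higher, beside 27.8%. The count was 5 of 7 at day 9, beside 30.3%, and at day 11 it was 6 of 7, beside 32.1%. At days 5, 7, 9 and 11, 0 members were called lower, beside 15.1%, 22.8%, 28.0% and 29.9% of all tested genes. With 3 libraries a group the later counts depended on single replicates, at 2 to 4 for day 7, 2 to 4 for day 9 and 4 to 6 for day 11 when each replicate number was left out in turn. Without the libraries low in long genes they were 3, 4 and 6.

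Counts by non-overlap of the groups in TPM followed the same course. Of the 7 members, 1 stood wholly above WT at day 1 and 3 wholly below, beside 7.65% and 24.9% of all genes with a mean of at least 1 TPM. The member above was roX1, and those below were mof, msl-2 and msl-3. At day 3, roX1 and roX2 stood wholly above and msl-3 wholly below, which is 2 and 1 of 7 beside 15.6% and 17.0% of genes. At day 5, roX1 and msl-1 stood wholly above and 0 below, beside 26.6% and 9.52%. At day 7, 6 of 7 members stood wholly above, beside 42.3% of genes, and msl-3 was the one that overlapped. At days 9 and 11 all 7 stood wholly above, beside 48.2% and 50.7% of genes.

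**Figure D2:**
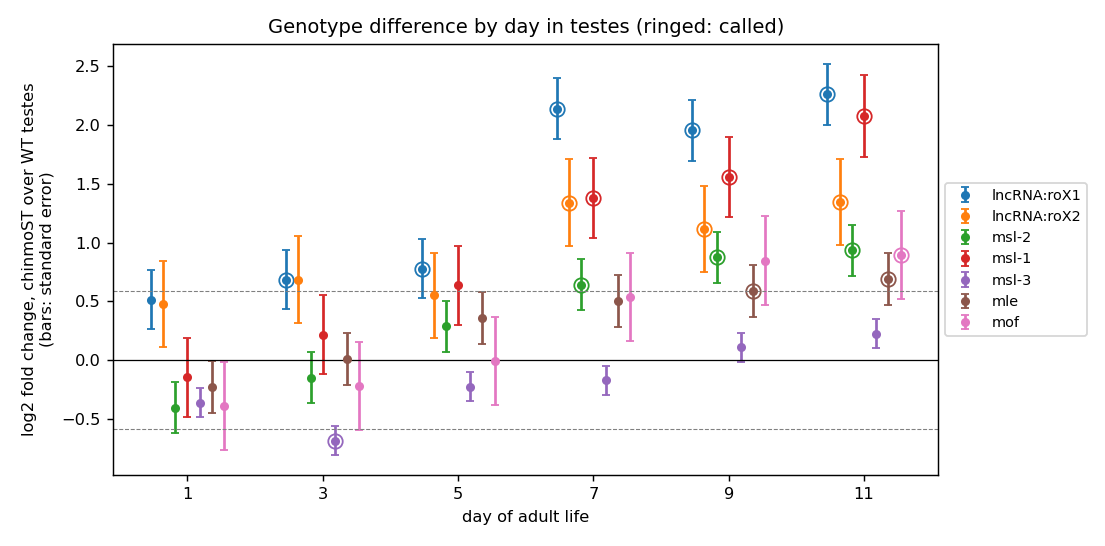
Log2 fold change of each member, chinmoST over WT testes (vertical axis), at each day of adult life (horizontal axis), with standard errors as bars and called values ringed. roX1 lay highest from day 5 onwards, reaching 2.26 at day 11, and msl-3 lay lowest from day 3 onwards, reaching 0.22 at day 11.

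The change with age was tested directly as the genotype difference at day 11 minus that at day 1. It was called for 6 of 7 members, all upwards, beside 28% of tested genes called upwards. In log2 it was 2.22 for msl-1 (SE 0.48, adjusted p = 0.000329), 1.74 for roX1 (SE 0.36, adjusted p = 0.000186), 1.33 for msl-2 (SE 0.31, adjusted p = 0.000631), 1.29 for mof (SE 0.53, adjusted p = 0.0405), 0.92 for mle (SE 0.31, adjusted p = 0.0144) and 0.59 for msl-3 (SE 0.17, adjusted p = 0.00579). For roX2 it was 0.87 and was not called (SE 0.51, adjusted p = 0.154), with 0.33 to 1.48 when each replicate number was left out in turn. The msl-3 value sits at the fold limit and fell below it with DESeq2 (0.50). Without the libraries low in long genes the values were 2.15 for msl-1, 1.82 for roX1, 1.23 for msl-2, 1.02 for mof, 0.73 for mle and 0.46 for msl-3. The msl-3 call was then lost, and roX2 was called at 1.22 (adjusted p = 0.0108). Scaling by library size alone shifted the median of all genes in this comparison by 0.27 and left the same 6 members called, and 3 to 5 were called when each replicate number was left out in turn.

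Within chinmoST testes, all 7 members were called higher at day 11 than at day 1, beside 34.2% of tested genes, with log2 fold changes of 2.15 for msl-1, 2.002 for roX1, 1.34 for mof, 1.27 for msl-2, 0.91 for roX2, 0.91 for mle and 0.65 for msl-3. The weakest of these was roX2 (adjusted p = 0.0276), whose day 1 libraries included the one of 2.51 TPM, and msl-3 was under the fold limit, at 0.57, without the libraries low in long genes. Within WT testes, 0 of 7 were called between the same days, beside 0.664% of tested genes. Their log2 fold changes ran from -0.06 to 0.26, 0 members had an unadjusted p under 0.05 in edgeR, and DESeq2 called 0.

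Averaged over the 6 days, 3 of 7 members were called higher in chinmoST testes, beside 24.2% of tested genes. These were roX1 (log2 fold change 1.39, SE 0.10, adjusted p = 2.2e-12), msl-1 (0.95, SE 0.14, adjusted p = 4.98e-07) and roX2 (0.92, SE 0.15, adjusted p = 3.2e-06). These same 3 were called under every setting that kept the fold limit. msl-2 (0.36), mle (0.32) and msl-3 (-0.18) passed the adjusted p but not the fold. mof was at 0.28 (SE 0.15, adjusted p = 0.0976). The median over the members was 0.36, beside 0.02 over all tested genes.

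In a whole organ, a higher level per transcript can come from more cells of a type or from more RNA per cell, and these cannot be told apart in bulk libraries. Markers of several cell types moved in the same libraries. At day 11 the 4 cyst lineage markers (tj, zfh1, eya and ptc) summed to 79.5 to 95.8 TPM in chinmoST testes and 31.3 to 33.6 TPM in WT testes. Over all days tj reached 47.6 TPM in chinmoST testes and 2.65 TPM in WT testes, with medians of 6.2 and 1.7 TPM. Medians of eya, zfh1 and ptc were 16.4, 7.01 and 4.6 TPM in chinmoST testes and 16.9, 7.61 and 3.8 TPM in WT testes. The sum is not particular to testes, with medians of 117 TPM in chinmoST ovaries and 92.0 TPM in WT ovaries. The early germ line markers vas and bam, 2 of the 3 listed, summed to 98.2 to 146 TPM in chinmoST testes and 13.1 to 16.2 TPM in WT testes. Transcripts of 6 sperm genes summed to 6903 to 8189 TPM in chinmoST testes and 17998 to 19497 TPM in WT testes, and 6 spermatocyte genes to 618 to 738 TPM and 1276 to 1376 TPM. The spermatocyte sum was mostly bol, with medians over all days of 742 TPM in chinmoST testes and 1233 TPM in WT testes. Medians of sa, aly, can and topi were also lower in chinmoST testes, and that of mia was not, at 13.8 and 13.4 TPM. At day 11 the 5 eggshell and yolk genes summed to 13.1 to 91.4 TPM in chinmoST testes and 0.81 to 2.21 TPM in WT testes, and 4 muscle genes to 206 to 241 TPM and 101 to 124 TPM. At day 1 the cyst markers summed to 16.7 to 28.9 TPM in chinmoST testes and 28.5 to 28.7 TPM in WT testes, and vas with bam to 10.5 to 11.8 TPM and 11.6 to 15.8 TPM. The same direction held when most members first differed: at days 7 and 9 the cyst markers summed to 37.7 to 69.7 TPM in chinmoST testes and 18.3 to 31.6 TPM in WT testes, and vas with bam to 44.4 to 139 TPM and 8.05 to 17.1 TPM. The blood cell genes Hml and NimC1, 2 of 3 listed, summed to 3.34 to 4.87 TPM in chinmoST testes and 0.64 to 2.48 TPM in WT testes at day 7, to 2.29 to 4.69 TPM and 1.26 to 2.12 TPM at day 9, and overlapped at day 11, at 1.89 to 2.13 TPM and 1.5 to 2.14 TPM. Genes of the accessory gland, a male organ beside the testis, varied widely between libraries of a group: the 8 listed summed to 421 to 4009 TPM at day 1 and 2.26 to 482 TPM at day 11 in chinmoST testes, and to 992 to 1508 TPM and 6.08 to 11.8 TPM on those days in WT testes. None of the matched cyst, germ line, sperm, spermatocyte, muscle or blood cell genes was at 0 in any testis library, and of the eggshell and yolk genes Cp36, Vm26Aa and Yp1 were at 0 in at least 1 WT testis library and in no chinmoST testis library. The part of these cell types and of accessory gland RNA in the member results was not tested.

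Ovaries held RNA of all 5 protein subunits but almost no roX RNA. roX1 had a lowest, median and highest level of 14.9, 19.4 and 33.3 TPM in WT testes and of 0.01, 0.11 and 0.56 TPM in WT ovaries. The highest WT ovary value came from the library that carried testis RNA. roX1 was called higher in WT testes, 210-fold (log2 fold change 7.72, SE 0.34, adjusted p = 2.23e-27), and its value lay at 7.83 without that library and at 6.68 without the libraries low in long genes. Over the 12 other settings the log2 value ran from 4.18 to 8.31, so the size of the fold depends on the setting. WT ovary libraries held 5.0 to 136 expected counts of roX1. In ovaries of either genotype a part of the roX1 counts could belong to ec, with which it shares exonic bases. That part was not tested.

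roX2 was at or near nothing in ovaries. Of the 15 WT ovary libraries, 4 had 0 expected counts and 13 had at most 3, against 33.0 to 354 counts in the WT testis libraries. It was called higher in WT testes (adjusted p = 4.41e-22). The fitted log2 fold change of 6.52 depends on the prior count at such levels and is no measure of the size. In TPM the median was 1.44 in WT testes, and no ovary library exceeded 0.10.

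msl-2 was expressed in both tissues at modest levels. It had a lowest, median and highest level of 1.92, 4.41 and 6.18 TPM in WT testes and 1.04, 3.07 and 5.76 TPM in WT ovaries, so that the ranges overlapped widely. It was called higher in WT testes (log2 fold change 1.14, SE 0.12, adjusted p = 9.91e-13). On log2(TPM + 1) the difference was 0.50 and missed the fold limit, so the size of this difference depends on the scale.

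msl-1 ran the other way. It had a lowest, median and highest level of 0.86, 3.91 and 4.66 TPM in WT testes and 16.2, 69.7 and 125 TPM in WT ovaries, with no overlap, and was called lower in WT testes, 12.8-fold (log2 fold change -3.68, SE 0.19, adjusted p = 5.77e-24). The WT ovary libraries low in long genes had 16.2 to 21.5 TPM and the other WT ovary libraries 56.6 to 125 TPM. Without all such libraries the value was -4.12. In ovaries msl-1 was the most abundant of the members by median, at 116 TPM in chinmoST and 69.7 TPM in WT.

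mof had a median of 7.70 TPM in WT testes and 20.1 TPM in WT ovaries and was called lower in WT testes (log2 fold change -1.31, SE 0.15, adjusted p = 3.47e-11), with -0.75 without the libraries low in long genes. msl-3 had a median of 19.9 TPM in WT testes and 51.1 TPM in WT ovaries and was called lower in WT testes (-0.96, SE 0.11, adjusted p = 8.23e-11), though its value was -0.63 without the libraries low in long genes, and with DESeq2 it was -0.30 and under the fold limit. mle had medians of 14.9 TPM in WT testes and 17.8 TPM in WT ovaries and was not called (0.14, SE 0.08, adjusted p = 0.108). Its direction depended on the scaling, at 0.77 with DESeq2 and -0.15 with library size alone. In all, 3 of 7 members were called higher and 3 lower in WT testes, beside 53.6% and 32.5% of 15293 tested genes. The median of all genes in this comparison was 1.22, and scaling by library size alone shifted it by -0.29. All 5 subunits lay below that median and both roX RNAs above it.

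**Figure D3:**
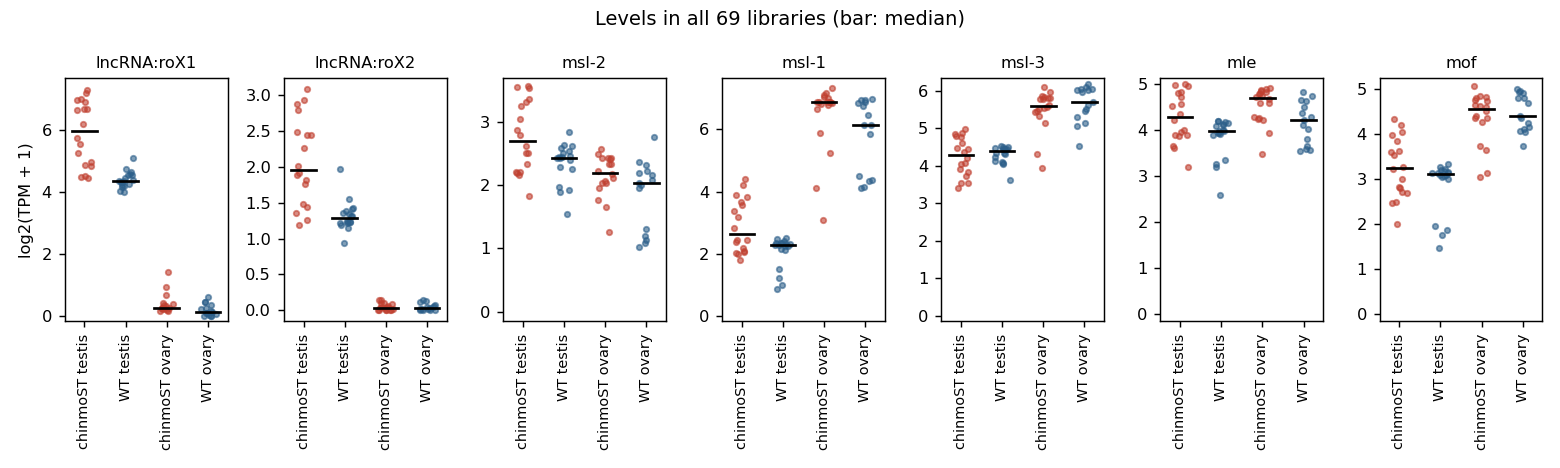
Level of each member on log2(TPM + 1) (vertical axis) in chinmoST testes, WT testes, chinmoST ovaries and WT ovaries (horizontal axis), with a point for each of the 69 libraries and a bar for the median. roX1 and roX2 were at most 1.71 and 0.10 TPM in any ovary library, while msl-1 reached 157 TPM in ovaries and at most 20.4 TPM in testes.

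The level of each member in all 24 groups of genotype, tissue and day was then put in order by its mean. roX1 ran from 0.03 TPM in WT ovaries of day 11 to 127 TPM in chinmoST testes of day 9. roX2 was highest in chinmoST testes of day 11, at 6.17 TPM. msl-2 ran from 1.29 TPM in WT ovaries of day 11 to 10.2 TPM in chinmoST testes of day 11, and mle from 10.9 TPM in WT ovaries of day 11 to 29.7 TPM in chinmoST testes of day 11. For these 4 members the older chinmoST testes therefore stood at the top of all groups. msl-1 was highest in chinmoST ovaries of day 7, at 135 TPM, and lowest in WT testes of day 5, at 2.85 TPM. msl-3 and mof were highest in WT ovaries of day 11, at 65.9 and 29.9 TPM, and lowest in chinmoST testes of day 3, at 11.5 and 5.12 TPM. Both WT ovary libraries of day 11 were low in long genes, so the places of this group were read from such libraries alone. In WT ovaries, the libraries low in long genes had medians of 1.18 TPM for msl-2, 11.1 TPM for mle and 0.02 TPM for roX1, and the others had 3.50 TPM, 20.8 TPM and 0.195 TPM. For msl-3 and mof the libraries low in long genes were the higher ones, at 64.7 and 27.2 TPM, and the others had 43.7 and 17.5 TPM. Neighbours in these orders mostly overlapped: of the 23 neighbouring pairs, 20 overlapped for roX1 and mof, 21 for msl-1 and roX2, 22 for msl-2 and msl-3, and all 23 for mle.

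Set against the mean WT testis and the mean WT ovary on log2(TPM + 1), chinmoST testes of day 11 departed from WT testes in different directions. msl-1, msl-3 and mof lay between the WT tissues, at 2.09, 0.59 and 1.35 above WT testes and at 1.67, 0.76 and 0.29 below WT ovaries. msl-2, mle, roX1 and roX2 lay above both, by 1.15, 1.09, 2.50 and 1.499 over WT testes and by 1.64, 0.77, 6.69 and 2.77 over WT ovaries. The WT ovary mean includes the 5 libraries low in long genes, which had medians of 19.4 TPM for msl-1, 64.7 TPM for msl-3 and 27.2 TPM for mof, against 110 TPM, 43.7 TPM and 17.5 TPM in the other 10. The 15.5 to 19.2 TPM of mof in chinmoST testes of day 11 were thus about the median of those other 10. The roX RNAs of the chinmoST testes lay farther from the WT ovary level than WT testes did, and msl-1, msl-3 and mof nearer to it, with msl-3 not called against WT testes of day 11 in the test on counts (adjusted p = 0.106).

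The chinmoST ovaries were compared with WT ovaries as a second tissue. Of the 6 members tested there, 1 was called higher and 0 lower, beside 14.3% and 13.8% of 11478 tested genes, and roX2 was too low to be tested. The call was roX1 (log2 fold change 1.00, SE 0.36, adjusted p = 0.0266, and 0.70 to 1.81 when each replicate number was left out), with a lowest, median and highest level of 0.12, 0.21 and 1.71 TPM in chinmoST ovaries and 0.01, 0.11 and 0.56 TPM in WT ovaries. The ranges overlapped, and the highest chinmoST values were single libraries, with 1.71 TPM at day 7 replicate 2, 0.94 TPM at day 9 replicate 2 and 0.61 TPM at day 5 replicate 3. These are 32.5 to 241 expected counts in chinmoST ovaries and 5.0 to 136 in WT ovaries. The call was lost without replicate 2 (adjusted p = 0.292), without replicate 3 (adjusted p = 0.197) and without the libraries low in long genes (adjusted p = 0.232).

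Of the subunits in ovaries, msl-3 (log2 fold change -0.45, SE 0.15, adjusted p = 0.018) and mof (-0.45, SE 0.14, adjusted p = 0.0153) passed the adjusted p but not the fold limit. mof had a median of 22.6 TPM in chinmoST ovaries and 20.1 TPM in WT ovaries over all libraries. Among libraries not low in long genes its medians were 23.6 TPM in chinmoST ovaries and 17.5 TPM in WT ovaries. Without the libraries low in long genes the log2 fold change was -0.15 for msl-3 and -0.0015 for mof. These 2 values are means without day 11, so they differ from the main ones in the days averaged too. msl-1 had a lowest, median and highest level of 7.61, 116 and 157 TPM in chinmoST ovaries and 16.2, 69.7 and 125 TPM in WT ovaries, and was not called (0.37, adjusted p = 0.164). msl-2 (0.16) and mle (0.11) were not called either, with medians of 3.58 and 25.1 TPM in chinmoST ovaries and 3.07 and 17.8 TPM in WT ovaries. In WT ovaries of day 11, all low in long genes, eggshell and yolk genes summed to 3433 to 4751 TPM and cyst markers to 25.4 to 27.6 TPM. WT ovaries of day 9, none low in long genes, had 19135 to 56820 TPM and 91.8 to 133 TPM. The part of cell content in the libraries low in long genes was not tested.

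**Figure D4:**
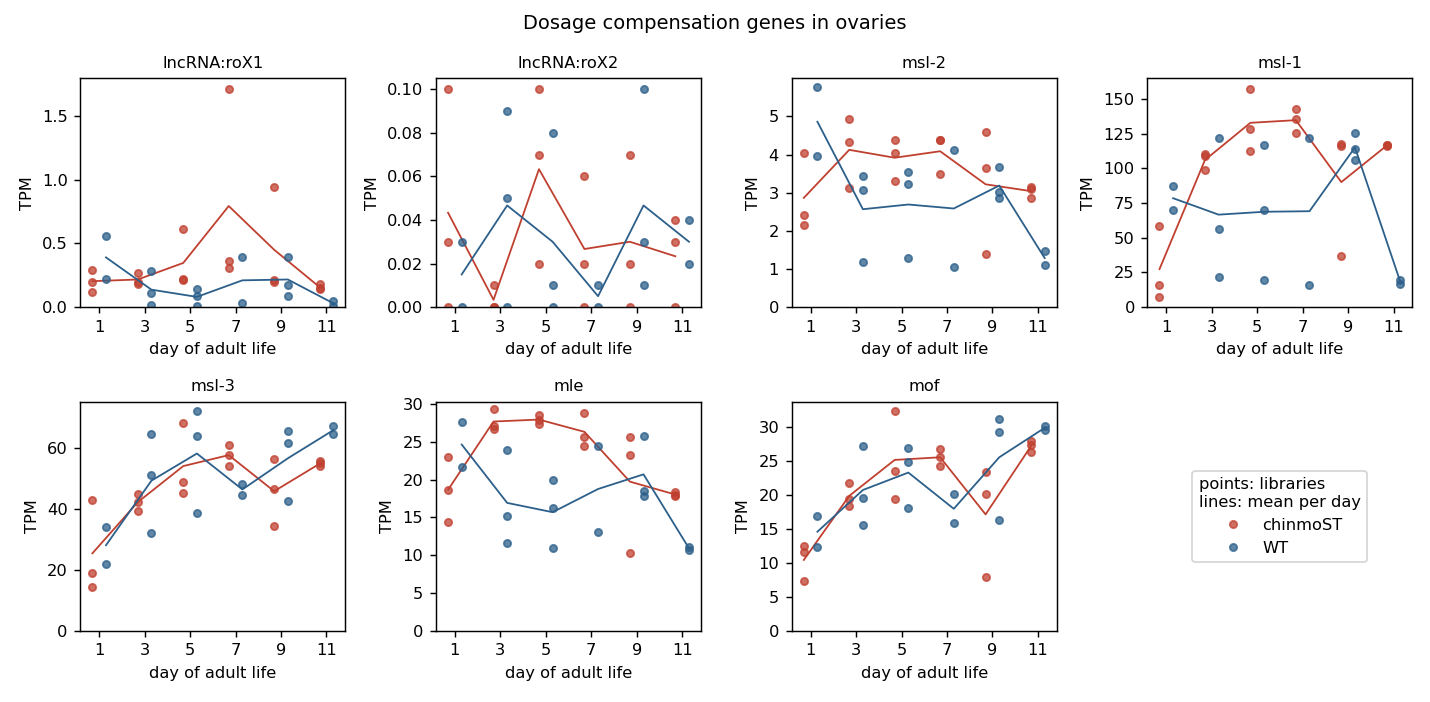
Level of each member (vertical axis, TPM) in every ovary library by day of adult life (horizontal axis), with points for libraries and lines for the mean of each day in chinmoST and WT ovaries. msl-1 fell into low and high libraries in both genotypes, the low ones being those low in long genes (7.61 to 36.9 TPM in chinmoST, 16.2 to 21.5 TPM in WT), and roX2 stayed at or below 0.10 TPM.

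Whether the genotype effect differed between tissues was tested as the effect in testes minus that in ovaries, each averaged over days. Of the 7 members, 1 was called, beside 30.9% of 15293 tested genes. This was mof (0.61, SE 0.21, adjusted p = 0.0175). Without the libraries low in long genes, and so without day 11, its value was -0.10. For roX1 the difference was 0.22 (adjusted p = 0.757) on the count scale, since a fold of similar size was fitted in ovaries at far lower levels, whereas on log2(TPM + 1) it was 1.31 and was called. For msl-1 it was 0.46 (adjusted p = 0.151) and for roX2 0.67 (adjusted p = 0.461). A difference in fold between tissues was therefore shown for none of the 7 members in a way that held under all settings.

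The balance between members also differed by tissue and age. The ratio of roX1 to msl-2 in TPM was 10.6 to 13.3 in chinmoST testes of day 11 and 4.14 to 4.78 in WT testes of that day. Over all days it ran from 5.76 to 16.1 in chinmoST testes and from 3.36 to 13.3 in WT testes. The highest WT value was that of day 5 replicate 1, a library low in long genes. At most 0.391 and 0.106 were seen in any chinmoST or WT ovary library. The ratio of msl-1 to msl-2 was 1.45 to 1.90 in chinmoST testes of day 11 and 0.779 to 0.856 in WT testes. Over all days it ran from 0.764 to 1.90 in chinmoST testes and from 0.381 to 1.10 in WT testes. In ovaries its median was 30.1 in chinmoST and 21.6 in WT, so msl-1 RNA far outnumbered msl-2 RNA there. The ratio of roX1 to roX2 had a median of 19.0 in chinmoST testes and 13.0 in WT testes, with ranges of 8.41 to 34.8 and 10.01 to 22.8 that overlapped.

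The deposited gene lengths, which are means over transcripts weighted by their estimated abundance, moved for msl-1, roX1, roX2 and, by a few bases, mle. For msl-1, with transcripts of 3757 and 5021 nt, the length was 4458 to 4555 nt in chinmoST testes of day 11 and 4097 to 4155 nt in WT testes, without overlap. Its longer transcript thus had a larger estimated share. For roX1 it was 3549 to 3572 nt in chinmoST testes of day 11 and 3684 to 3734 nt in WT testes, and for roX2 740 to 801 nt and 884 to 1043 nt. For mle, with transcripts of 4023 and 4062 nt, it was 4048.4 to 4049.7 nt and 4053.2 to 4053.5 nt on that day, also without overlap. The shorter roX2 length raises its TPM for the same count, and the test on counts does not correct for length. The fold of roX2 can therefore differ between the scales. At day 11 the ratio of mean TPM was 3.93, above the fold from counts, and the part of length in this gap was not tested. The lengths of msl-3 and mof cannot vary, since each has a single transcript. Those of msl-2 overlapped at day 11, at 3722 to 3737 nt in chinmoST testes and 3718 to 3728 nt in WT testes. Over all days the roX1 length had medians of 3706 nt in chinmoST testes and 3684 nt in WT testes. Ovary libraries with enough counts had medians of 4198 nt in chinmoST and 4201 nt in WT.

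Since the complex acts on the X, the tested genes were also summarised by chromosome. The median log2 fold change of X-linked genes, chinmoST over WT testes, was 0.03, 0.06, 0.14, 0.40, 0.51 and 0.56 at days 1, 3, 5, 7, 9 and 11. For chromosomes 2 and 3 it was -0.01 at day 1, -0.08 at day 5 and -0.02 at day 9. Of 2219 X-linked genes at day 11, 993 (44.7%) were called higher and 499 (22.5%) lower, and of 12423 genes on chromosomes 2 and 3, 29.7% were called higher and 31.5% lower. With library size alone the balance on chromosomes 2 and 3 turned over, at 34.8% higher and 26.9% lower, as it did with limma on log2(TPM + 1), at 29.4% and 23.2%. More X-linked genes were called higher than lower with library size alone (50.2% and 18.3%), with DESeq2 (43.8% and 23.6%) and with limma (43.4% and 16.0%). Chromosome 4, which the protein Pof coats, moved further: its 101 tested genes had a median of 0.12 at day 1 and 1.10 at day 11, with 56.4% called higher. At day 11 the X-linked median stayed above that of chromosomes 2 and 3 under other scalings, at 0.77 against 0.20 with library size alone and 0.51 against -0.05 with DESeq2. The upward shift was thus not confined to the X. A link between it and the level of the members was not tested. In WT testes against WT ovaries the X-linked median was -0.34 and that of chromosomes 2 and 3 was 1.58, with 0.30 and 2.22 under DESeq2 and -0.63 and 1.29 under library size alone. The X-linked median was the lower one in all 3. In chinmoST against WT ovaries they were -0.06 and 0.02.

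**Figure D5:**
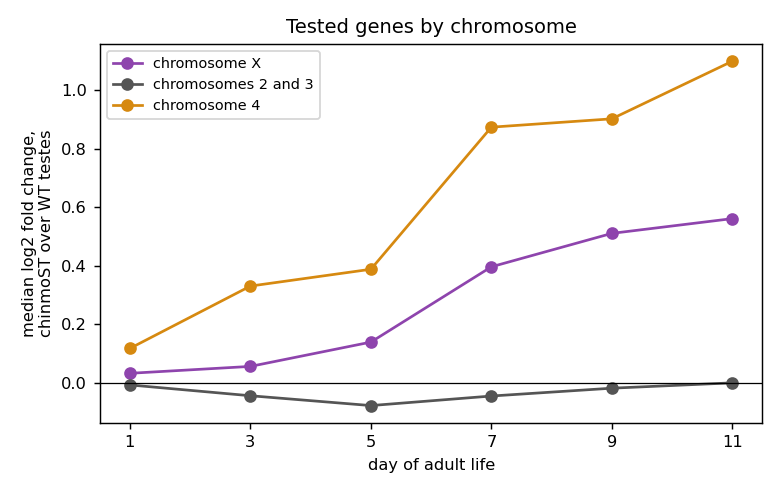
Median log2 fold change, chinmoST over WT testes (vertical axis), of the tested genes on the X, on chromosomes 2 and 3 and on chromosome 4, by day of adult life (horizontal axis). The X-linked median reached 0.56 and that of chromosome 4 reached 1.10 at day 11, while that of chromosomes 2 and 3 stayed near 0.

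Genes that work with the complex were read from lists. Of 4 regulators of msl-2 RNA, all 4 were called higher in chinmoST testes in the mean over days, beside 24.2% of all tested genes. Sxl, the female-determining RNA-binding protein, had a log2 fold change of 1.35 (adjusted p = 2.22e-09), how, a splicing regulator, 1.35 (adjusted p = 8.42e-08), and Unr, the translational corepressor that acts with Sex-lethal on msl-2, 1.13 (adjusted p = 8.57e-14). The median of the list was 1.24, and 0 of 4 were called at day 1. At day 11 Sxl was at 40.0 to 57.9 TPM in chinmoST testes and 9.59 to 10.4 TPM in WT testes (log2 fold change 2.31, adjusted p = 3.17e-06), so Sxl and msl-2 RNA rose in the same libraries. Sxl here sums all its transcripts, of which only some encode a functional protein, and it had 62.8 to 322 TPM in chinmoST ovaries and 173 to 295 TPM in WT ovaries. In WT testes against WT ovaries all 4 regulators were called lower, beside 32.5% of genes, with -4.36 for Sxl, -2.80 for Hrb27C and -2.72 for Unr.

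Of 7 partners of the complex on the X, 2 were called higher in the mean over days and 0 lower, beside 24.2% of all tested genes called higher. They were Nup153, a nuclear pore protein (log2 fold change 0.92, adjusted p = 2.07e-05), and Top2, a topoisomerase (0.90, adjusted p = 4.07e-08). The list's median was 0.56, and at day 11 4 of 7 were called higher, beside 32.1%. In WT testes against WT ovaries 2 were called higher and 5 lower, beside 53.6% and 32.5% of genes, led by Nup153 (-2.75), Su(var)3-7 (-2.61) and Top2 (-2.07).

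Of 6 subunits of NSL, the other complex of MOF, 1 was called higher in the mean over days (nsl1, 0.78, adjusted p = 1.62e-10), beside 24.2% of genes, and 3 were called higher at day 11, beside 32.1%. In WT testes against WT ovaries 0 were called higher and 3 lower, beside 53.6% and 32.5% of genes. The lower ones were nsl1 (-2.40), wds (-1.84) and dgt1 (-0.78). Pof, whose protein coats chromosome 4, was called lower in chinmoST testes (-0.73, adjusted p = 2.17e-11), reaching -1.503 at day 11, when it had 323 to 412 TPM in chinmoST testes and 899 to 936 TPM in WT testes. Pof was thus the only gene of these lists called lower in the mean over days or at day 11. At day 3, 1 NSL gene was called lower. In ovaries 1 of these 18 list genes was called between the genotypes, Clamp, a zinc finger protein that recruits the complex to the X (log2 fold change -0.83, adjusted p = 0.00973), where 14.3% of tested genes were called higher and 13.8% lower.

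Lastly, the genes whose group means followed each member most closely over the 24 groups were named, by Pearson's r on log2(TPM + 1) among 13395 genes. For roX1 they were Lim1 (r = 0.997), CG42854 (0.997) and Rcd-1r (0.996), and for roX2 CG1894 (0.994), unc-13-4A (0.993) and CG3556 (0.993). For msl-1 they were Aef1 (0.998), Marf1 (0.997) and Bre1 (0.997), for msl-3 CG8435 (0.988), aurB (0.985) and Lint-O (0.985), and for mof Cog3, CG1024 and Phs (0.987 each). For msl-2 they were Sdb (0.966), GEFmeso (0.954) and tsh (0.949), and for mle CG8230 (0.955), alpha-Spec (0.952) and Appl (0.952). The 24 groups hold both tissues, so these values include the gap between testes and ovaries. Among the members, roX1 and roX2 followed each other with r = 0.987 over all 24 groups and 0.983 over the 12 testis groups. msl-1 and msl-2 had r = -0.231 over all groups and 0.982 over the testis groups, and the testis groups include the chinmoST groups in which both were called higher from day 7. Within WT testes neither was called between days 1 and 11. msl-3 and mof had r = 0.961 over all groups.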

How the data were processed

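Poly(A) RNA of whole testes and ovaries was sequenced by the study as paired-end DNBSEQ reads. Per library, the authors deposited a gene table from RSEM with expected counts (estimated fragments per gene, not normalized) and TPM, which their program derived from those counts and transcript lengths. The submitters' processing notes name FastQC 0.11.9, Trim Galore 0.6.4, Bowtie2 and RSEM, and the dm6 build. The deposited FPKM values were not used. Kits that mark strand are not stated, so overlapping genes can share reads.

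These estimates were rounded to integers, low genes were removed by filterByExpr, libraries were scaled by TMM, and edgeR 4.0.16 (R 4.3.3) gave the quasi-likelihood tests. Every combination of genotype, tissue and day had its own term, over 36 testis libraries (14910 genes), 33 ovary libraries (11478 genes) or all 69 (15293 genes). p-values were adjusted by Benjamini-Hochberg over all tested genes. The SE is the absolute log2 fold change divided by the square root of the F statistic. The scripts were tested on simulated data. DESeq2 1.42.0, limma 3.58.1 on log2(TPM + 1) and log2(TPM + 0.1), other scalings and filters, left-out replicates, a replicate block, a fit of the groups compared alone and left-out libraries were tried as alternatives. Of these, leaving out libraries low in long genes (r of deviation with gene length under -0.2) was chosen after seeing the data, whereas r under -0.5 was set earlier. The paper's methods give no test for these bulk libraries, and the fold of 1.5 is the one used for its cell types.

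Replicates were compared in 66 pairs, and in each the difference exceeded sampling noise, with a chi-square per gene of 13.4 or more. Symbols came from a BDGP6 annotation, which held 17710 of the 17807 identifiers. Named genes were the 7 members, chinmo, the 3 genes most like each member, and up to 3 called genes with the largest change per list. The members and the lists were chosen with earlier results of these data known. The lists were 7 partners of the complex (Clamp, JIL-1, Top2, Mgtor, Nup153, Iswi, Su(var)3-7), 4 regulators of msl-2 RNA (Sxl, Unr, how, Hrb27C), 6 NSL subunits (nsl1, dgt1, Rcd1, Rcd5, wds, MBD-R2) and Pof. Counts have no molecular identifiers, so depth limits only counting error.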

Additional observations from a re-analysis of the deposited data

Results flagged for a closer look

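The genotype difference in testes was not the same at day 11 as at day 1 for 6 of the 7 members, by edgeR's test of the difference itself. The change in log2 fold change was 2.22 for msl-1, 1.74 for roX1, 1.33 for msl-2, 1.29 for mof, 0.92 for mle and 0.59 for msl-3, each upwards and past the threshold. Upward changes were called for 28% of all tested genes in this comparison, and the summed TPM of cyst lineage and of early germ line markers rose in the same libraries. Their part in the result was not tested.

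With edgeR the genotype effect on mof was called different between the tissues, at 0.61 for testes minus ovaries (adjusted p = 0.0175). DESeq2 called 0 members here, and the value was -0.10 without the libraries low in long genes.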

How the results depend on the processing

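Over 14 alternative settings, 1066 member log2 fold changes were recomputed. Of these, 1016 kept their sign, 971 kept their call, 65 lost it, 29 gained one and 1 changed sign after being called: the effect on mof in testes minus ovaries, at -0.10 without the libraries low in long genes, an alternative chosen after seeing the data. The calls of roX1, msl-1 and roX2 in the mean over days, of roX1 and msl-1 at days 7, 9 and 11, and of both roX RNAs, msl-1 and mof between the WT tissues held in each of the 11 or 12 settings recomputed for their comparison. With 3 libraries a group, and 2 once a replicate was left out, calls near the threshold are limited by the number of libraries, and roX2 and ovary roX1 also by counts. Where 1 library of a group was left, it was assumed to vary like the others.

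Members called with each replicate left out in turn numbered 0 to 2 at day 1, 0 to 4 at day 3, 0 to 2 at day 5, 2 to 4 at day 7, 2 to 4 at day 9, 3 to 5 for the change between days 1 and 11, 0 to 4 in ovaries and 0 to 1 for testes minus ovaries. In all genes the calls were then 224 to 1779 at day 1, against 835 as reported, 1005 to 3647 at day 3, against 2854, 1624 to 5470 at day 5, against 4148, 9 to 70 in WT testes between days, against 99, 1449 to 4110 in ovaries, against 3232 and 3144 to 5798 for testes minus ovaries, against 4725. With scaling by library size alone, 1 member was called at day 3. With DESeq2, 0 members were called for testes minus ovaries, and 334 genes in WT testes between days. With limma on log2(TPM + 1), 0 members were called in ovaries and 2 for testes minus ovaries, and 1864 genes at day 3 and 1354 in ovaries. With limma on log2(TPM + 0.1), 3 members were called for testes minus ovaries, and 155 genes in WT testes between days. With the adjusted p alone, 6 members were called in the mean over days and 3 in ovaries, and 11205 and 4905 genes. Without libraries with a length trend, 0 members were called for testes minus ovaries, and 176 genes in WT testes between days. Without the libraries low in long genes, 4 members were called at day 3, 2 at day 5, 0 in ovaries and 0 for testes minus ovaries, and 1433 genes at day 1, 333 in WT testes between days and 1383 in ovaries. With only the libraries of the groups compared, 0 members were called at day 3, 0 at day 5 and 3 at day 9, and 1163 genes at day 3, 806 at day 5 and 633 in WT testes between days. Scaling by library size alone moved the share of calls that were higher in chinmoST to 28.6% at day 1 (39.6% as reported), 58.6% at day 5 (45.6%), 66.2% at day 7 (55.0%) and 69.5% in ovaries (50.9%). At day 3 (34.4%) it gave 27.7% and DESeq2 46.2%, and DESeq2 gave 38.2% for testes minus ovaries (57.6%). With limma on log2(TPM + 1) the shares of days 1, 5, 7 and 9 were 28.9%, 64.2%, 70.6% and 66.5% (day 9 as reported was 52.0%), with 66.3% in the mean over days (53.5%) and 79.2% in ovaries. For the change between days 1 and 11 (52.5%) library size alone gave 64.7% and limma 65.8%. Of calls between the WT tissues, 62.2% were higher in testes, against 70.6% with DESeq2, 59.0% with library size alone and 52.2% with limma. The cause of these shifts was not tested.

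Replicate numbers did not pair chinmoST with WT libraries of the same day: deviations of same-numbered libraries had a mean r of 0.016 in testes and -0.010 in ovaries. Sharing across days within a genotype was not covered by this check. In WT testes, replicate 1 of days 3, 5, 7 and 9 was low in long genes each time, with r of -0.57, -0.53, -0.58 and -0.45 with gene length. With the replicate block, 6 members were called at day 9, where mof was gained, and 5 for the change between days 1 and 11, where msl-3 was lost, and no other member call changed.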
